A study of Mus musculus with 12 samples.

Results

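The Kruppel-like factors examined here are Klf2, Klf3, Klf4, Klf5 and Klf6, the members of the family that were listed apart from its erythroid gene Klf1. They were taken by Ensembl gene ID from a list, and all 5 IDs (ENSMUSG00000055148 for Klf2, ENSMUSG00000029178 for Klf3, ENSMUSG00000003032 for Klf4, ENSMUSG00000005148 for Klf5 and ENSMUSG00000000078 for Klf6) were present among the 22400 gene rows. The genes were selected on their log2 signals in the 3 populations as well as on family membership, so their differences between populations are given as a description and no test is used to support them. The cells came from E7.5 mouse embryos with a Foxf1::venus knock-in on a C57BL/6 background, in which VENUS fluorescence reports Foxf1. They were sorted for VENUS and for FLK1, a receptor for vascular endothelial growth factor, into cells positive for FLK1 alone (FLK1+ FOXF1-), positive for both (double-positive) and positive for VENUS alone (FLK1- FOXF1+). Each population was represented by 2 arrays, from sort 1 and sort 2, with 50 cells a sample, and all 6 arrays come from the same knock-in. The labels do not say whether the embryos carried 1 or 2 copies of the knock-in, or how many embryos were pooled.

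Kruppel-like factors are transcription factors that bind GC-rich and CACCC elements through zinc fingers near the C-terminal end. Members differ in the part outside the fingers, so that some mainly activate and others mainly repress their targets. In the mouse embryo at gastrulation and soon after, members are known from the pluripotent epiblast, from extraembryonic epithelia, and from the developing vessels and blood of the yolk sac.

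The array medians lay between 6.00 and 6.07 on the log2 scale, and the pooled standard deviation between sorts had a median of 0.25 log2 units over all rows. The gene IDs are not paired with names in the files, and 0 of them matched the reference table, so the names of the 5 genes come from the member list alone. For that reason the sorting genes, markers of other cell types and the other genes of the family and its pathways were not examined, and the populations are named as labelled. A difference in signal between populations cannot be told apart from a difference in the share of cells that express the gene.

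In the deposited gene rows, the population means of Klf6 spanned 1.76 log2 units, with the highest signals in FLK1-negative cells, and those of Klf2 spanned 1.64, with the highest in FLK1-positive cells. With 1 pair of probe sets on all arrays, the span of Klf2 was 2.70. That pair was chosen by its fit to the FLK1-positive arrays and leaves out a probe set without this pattern. The promoters of these genes are shown because of their opposite order, as the 250 bases before the RefSeq start on GRCm38.p6, read 5′ to 3′ on the strand of the gene. The Klf2 window is chr8:72318812-72319061 on the plus strand and the Klf6 window is chr13:5861239-5861488 on the plus strand. Capitals mark the motif for MEF2 factors and the GC box GGGCGG in Klf2, and GGGCGG and CCAAT in Klf6, each on either strand.
Klf2: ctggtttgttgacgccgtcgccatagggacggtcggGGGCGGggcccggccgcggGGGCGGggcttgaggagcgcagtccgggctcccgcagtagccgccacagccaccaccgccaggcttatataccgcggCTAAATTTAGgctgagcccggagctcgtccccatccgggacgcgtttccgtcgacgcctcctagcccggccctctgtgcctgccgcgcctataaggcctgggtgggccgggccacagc
Klf6: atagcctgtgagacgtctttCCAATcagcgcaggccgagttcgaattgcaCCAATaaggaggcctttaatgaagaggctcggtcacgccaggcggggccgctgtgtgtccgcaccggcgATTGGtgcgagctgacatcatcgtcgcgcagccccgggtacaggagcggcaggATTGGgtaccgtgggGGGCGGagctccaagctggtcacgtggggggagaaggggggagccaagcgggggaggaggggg

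MEF2 factors are known to activate Klf2 in endothelial cells. The Klf2 window held 1 match to the MEF2 motif, 118 to 109 bases before the start, a motif found on either strand in 3.01% of 27025 RefSeq promoter windows of the same length. It also held 2 copies of GGGCGG, and the Klf6 window held 1. At least 1 copy occurred in 32.9% of windows, and the share with more copies was not counted. The Klf6 window had no MEF2 match but 4 copies of CCAAT (230, 200, 131 and 78 bases before the start, counted from the first base of each). At least 4 copies of CCAAT occurred in 0.918% of windows, and at least 1 in 34.5%. The CACCC element that family members bind was present once in the Klf2 window and in 51.3% of all windows, and the Klf6 window held none. The E-box CACGTG occurred once in the Klf6 window and in 6.05% of all windows, while TATAAA and the SRF CArG motif had no match in either window (13.0% and 1.4% of all windows). Windows were also found for Klf3 and Klf4, so that 4 of the 5 genes had one. The Klf3 window held 6 copies of GGGCGG and 5 of CACCC. The Klf4 window held 4 copies of GGGCGG, 0 of CACCC and 1 of CACGTG. Neither had a MEF2 or CCAAT match. These matches describe letters in the windows and do not show binding.

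Klf2, a factor of endothelial cells that responds to blood flow and is needed for stable vessel walls in the mouse embryo, had signals of 7.72 and 8.04 (sort 1 and sort 2) in FLK1+ FOXF1- cells. The signals were 8.09 and 8.10 in double-positive cells and 6.23 and 6.67 in FLK1- FOXF1+ cells. All 4 FLK1-positive arrays were therefore above both FLK1-negative arrays, with a gap of 1.06 log2 units between the nearest. The double-positive mean was higher than the FLK1- FOXF1+ mean by 1.64 ± 0.24 log2 units (SE, limma), or 3.13-fold. This gene row matched the mean of different pairs of probe sets in FLK1-positive and FLK1-negative cells. With the FLK1-positive pair on all arrays the difference was 2.70, but that pair was chosen where Klf2 is high. The pair leaves out probe set 4731638, with a difference of -0.21, so 2.70 is not given as a correction of 1.64. The FLK1- FOXF1+ mean differed from the FLK1+ FOXF1- mean by -1.43 ± 0.24. Between the FLK1-positive populations the difference was 0.21 ± 0.24, within its error, with a 95% interval from -0.35 to 0.78. In order of level, double-positive and FLK1+ FOXF1- cells came first and did not differ beyond their spread, and FLK1- FOXF1+ cells came last. Both differences from the FLK1-negative cells share the same 2 FLK1-negative arrays.

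Klf6 is a widely expressed factor, and mouse embryos without it form yolk sac vessels and blood poorly. Its signals were 8.09 and 7.06 in FLK1+ FOXF1- cells, 8.02 and 8.13 in double-positive cells, and 9.61 and 9.06 in FLK1- FOXF1+ cells. Here both FLK1-negative arrays were the highest, 0.93 log2 units above the nearest FLK1-positive array of the double-positive cells. The FLK1- FOXF1+ mean was higher than the FLK1+ FOXF1- mean by 1.76 ± 0.37 log2 units (SE), or 3.38-fold. Double-positive cells differed from FLK1- FOXF1+ cells by -1.26 ± 0.37. The arrays of the FLK1-positive populations overlapped, and their means differed by 0.50 ± 0.37 with a 95% interval from -0.36 to 1.35. That last difference rested on 1 array: without FLK1+ FOXF1- sort 2 it was -0.02, and without sort 1 of the same population it was 1.01. The size of the 1.76 difference also depended on these arrays. It was 1.24 without FLK1+ FOXF1- sort 2 and 2.27 without sort 1 of that population.

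**Figure D1:**
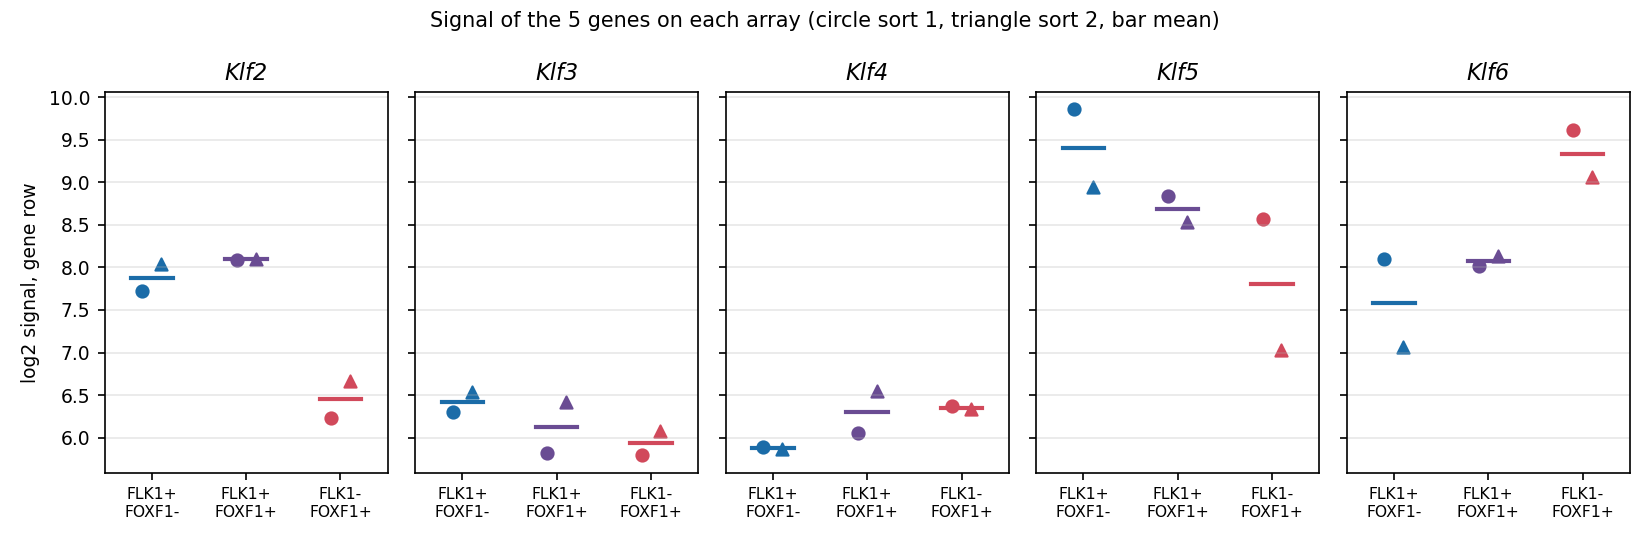
Signal of the 5 Kruppel-like factors on each of the 6 arrays, with the sorted population on the x axis and the log2 signal of the gene row on the y axis. Circles are sort 1, triangles sort 2 and bars the mean of both; Klf2 lies between 7.72 and 8.10 on the 4 FLK1-positive arrays and at 6.23 and 6.67 on the FLK1-negative ones, and Klf6 is highest on the FLK1-negative arrays.

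Klf5, which the mouse embryo needs at the blastocyst stage and which is known from proliferating epithelia and smooth muscle, had its highest mean in FLK1+ FOXF1- cells. Its signals were 9.86 and 8.94 there, 8.84 and 8.54 in double-positive cells, and 8.57 and 7.03 in FLK1- FOXF1+ cells. The means stepped down in that order, but the double-positive and FLK1- FOXF1+ arrays overlapped. The FLK1- FOXF1+ mean differed from the FLK1+ FOXF1- mean by -1.60 ± 0.51 log2 units (SE). The size of that difference depended on the FLK1- FOXF1+ arrays, since it was -2.37 without sort 1 of that population and -0.83 without sort 2. Double-positive cells differed from FLK1+ FOXF1- cells by -0.71 ± 0.51 (95% interval -1.92 to 0.50) and from FLK1- FOXF1+ cells by 0.89 ± 0.51 (-0.32 to 2.10). Leaving out 1 array moved the former between -1.17 and -0.25 and the latter between 0.12 and 1.66. The FLK1+ FOXF1- arrays lay above the double-positive ones by a gap of 0.10. Both intervals between neighbours in the order included 0. With the sort number as a block the standard error was 0.32, and the adjusted p (limma, Benjamini-Hochberg) was 0.904 for the former and 0.635 for the latter. Klf5 was higher in sort 1 in every population, but same-numbered sorts were not treated as pairs, so the block is only an alternative.

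In the gene rows, Klf3 and Klf4 had the smallest spans between population means, 0.48 log2 units each. Klf3, a repressor that recruits the CtBP corepressors, had signals of 6.30 and 6.54 in FLK1+ FOXF1- cells, 5.82 and 6.42 in double-positive cells, and 5.79 and 6.08 in FLK1- FOXF1+ cells. The double-positive arrays overlapped those of both other populations. The difference of the FLK1- FOXF1+ from the FLK1+ FOXF1- mean was -0.48 ± 0.27 (SE), with a 95% interval from -1.11 to 0.15.

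Klf4, one of the factors used to reprogram cells to pluripotency and a regulator of epithelial and vascular cells, had signals of 5.89 and 5.87 in FLK1+ FOXF1- cells. It was at 6.05 and 6.55 in double-positive cells and at 6.37 and 6.34 in FLK1- FOXF1+ cells. In the gene row, the FLK1+ FOXF1- arrays were below all 4 FOXF1-positive arrays. Neither of the 2 probe sets whose mean it equalled showed this. In 4894339, FLK1- FOXF1+ sort 1 (6.85) was below both FLK1+ FOXF1- arrays (7.20 and 6.99). In 5176628, double-positive sort 1 (4.60) was below FLK1+ FOXF1- sort 2 (4.75). The difference of the gene row from FLK1+ FOXF1- cells was 0.48 ± 0.23 log2 units (SE) for FLK1- FOXF1+ cells and 0.42 ± 0.23 for double-positive cells. Both 95% intervals included 0. The latter ran from 0.18 to 0.67 when 1 double-positive array was left out. The difference for FLK1- FOXF1+ cells equalled the mean of the differences of 2 probe sets, 0.04 and 0.91. The FOXF1-positive populations differed by -0.05 ± 0.23, with a 95% interval from -0.60 to 0.50.

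In the fit across all rows, 0 of the 5 genes passed an adjusted p under 0.05 (limma, Benjamini-Hochberg) in any of the 3 comparisons. Of all rows, 0% passed between double-positive and FLK1+ FOXF1- cells, 0.286% between double-positive and FLK1- FOXF1+ cells, and 0.545% between FLK1- FOXF1+ and FLK1+ FOXF1- cells. At an unadjusted p under 0.05 the counts of the 5 genes were 0, 2 (Klf2 and Klf6) and 3 (Klf2, Klf5 and Klf6), where 4.67%, 5.86% and 7.28% of all rows lay. The 2 arrays of one population did not overlap those of the other for 3, 2 and 5 of the 5 genes in these comparisons, against 32%, 32.4% and 35.1% of all rows. Differences of at least 1 log2 unit were found for 0, 2 and 3 genes, against 1.68%, 2.39% and 3.25% of all rows. Nothing is read from these counts, since the genes were selected on these signals.

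**Figure D2:**
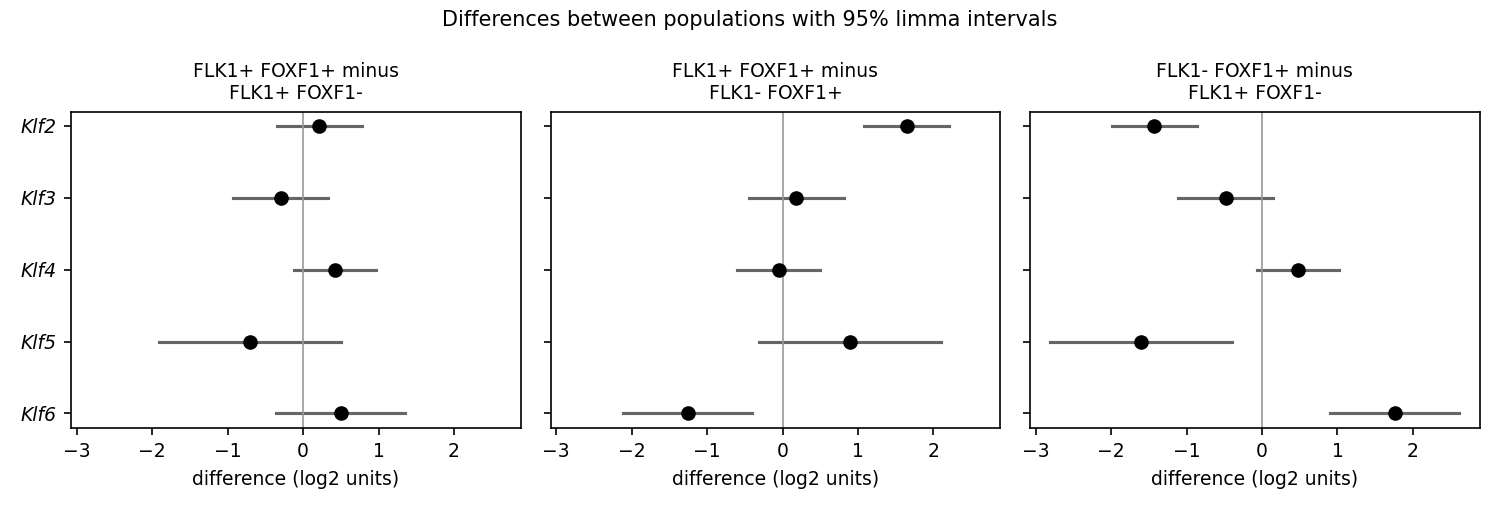
Differences in log2 signal between populations for the 5 genes, 1 panel for each comparison, with points for the difference and lines for the 95% interval of the limma fit. In the panel of the FLK1-positive populations all 5 intervals include 0; in the other panels the intervals of Klf2 and Klf6 lie on opposite sides of 0.

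The sizes of the differences were also set beside those of all rows, again only as a description, since the genes were selected on these signals. For Klf2, 99.3% of rows had a smaller absolute difference between double-positive and FLK1- FOXF1+ cells, and 98.6% between FLK1- FOXF1+ and FLK1+ FOXF1- cells. For Klf6 these shares were 98.7% and 99.1%, and for Klf5 96.7% and 98.9%. The 5 genes had a median absolute difference of 0.42, 0.89 and 1.43 log2 units in the 3 comparisons in the order above, against 0.18, 0.18 and 0.19 over all rows. The signed medians of the 5 genes were 0.21, 0.18 and -0.48, since the genes did not run in 1 direction.

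The exon-level values of the same arrays were searched for probe sets that could stand behind these signals. A gene row was traced to a probe set with an equal value, or to a pair whose mean was equal to 5 decimals, where this held on at least 4 arrays. This link rests on the arithmetic, because probe sets are not paired with genes in the files. The link does not show that no other probe set enters a gene row. It was found for Klf2, Klf4, Klf5 and Klf6 with 1 combination each, and the next best combination fitted at most 2 arrays. No combination reached 4 arrays for Klf3. An exception was made for a second pair in Klf2, which fitted only 2 arrays but shared a probe set with the first pair and fitted just the arrays that the first did not; this link is weaker.

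For Klf2, the gene row equalled the mean of probe sets 4518671 and 4546506 on the 4 FLK1-positive arrays. On the 2 FLK1-negative arrays it instead equalled the mean of 4518671 and 4731638. Probe set 4546506 had signals of 7.52 and 8.03 in FLK1+ FOXF1- cells, 7.75 and 8.48 in double-positive cells, and 4.24 and 4.81 in FLK1- FOXF1+ cells. Its difference between double-positive and FLK1- FOXF1+ cells was 3.58 log2 units, more than 1.5 times that of the gene row. Probe set 4518671 showed 7.93 and 8.05, then 8.43 and 7.73, then 5.99 and 6.54 in the same order, a difference of 1.81. Both probe sets were thus higher on every FLK1-positive than on every FLK1-negative array.

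Probe set 4731638 did not share that pattern. It lay at 6.44 and 6.11 in FLK1+ FOXF1- cells, 6.37 and 6.48 in double-positive cells, and 6.48 and 6.79 in FLK1- FOXF1+ cells, a difference of -0.21 between the last 2 populations. With the mean of 4518671 and 4546506 on all 6 arrays, a calculation added after the data were seen, the FLK1-negative signals of Klf2 were 5.12 and 5.68. The difference of double-positive from FLK1- FOXF1+ cells was then 2.70 log2 units in place of 1.64, and that of FLK1- FOXF1+ from FLK1+ FOXF1- cells was -2.48 in place of -1.43. The direction in Klf2 was the same with this pair as with the gene row, and the size of the difference was larger. Neither is independent of how the pair was chosen. The pair was fixed by its fit to the FLK1-positive arrays, shares 4518671 with the gene row on all arrays, and leaves out 4731638. Which size is nearer the true difference was not tested.

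For Klf6, the mean of probe sets 5329423 and 5388249 equalled the gene row on 5 arrays, all but FLK1+ FOXF1- sort 2. Probe set 5329423 was at 8.50 and 7.22 in FLK1+ FOXF1- cells, 8.02 and 8.38 in double-positive cells, and 9.94 and 9.06 in FLK1- FOXF1+ cells. Probe set 5388249 was at 7.69 and 7.28, 8.01 and 7.89, and 9.29 and 9.06 in the same order. Each was higher in both FLK1-negative than in all FLK1-positive arrays, with differences of 1.64 and 1.68 log2 units between FLK1- FOXF1+ and FLK1+ FOXF1- cells. On FLK1+ FOXF1- sort 2, the gene row (7.06) lay below both probe sets, which were at 7.22 and 7.28 there.

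For Klf4, the gene row on all 6 arrays equalled the mean of probe sets 4894339 and 5176628, whose order of populations differed. Probe set 4894339 was at 7.20 and 6.99 in FLK1+ FOXF1- cells, 7.51 and 7.44 in double-positive cells, and 6.85 and 7.43 in FLK1- FOXF1+ cells, so that its highest mean was in double-positive cells. Probe set 5176628 was at 4.57 and 4.75, 4.60 and 5.65, and 5.88 and 5.25 in the same order, with its highest mean in FLK1- FOXF1+ cells. The difference between FLK1- FOXF1+ and FLK1+ FOXF1- cells was 0.04 log2 units in the former and 0.91 in the latter. For Klf5, the gene row equalled probe set 5050179 on 5 arrays, and the 2 values on FLK1- FOXF1+ sort 1 were 8.57 and 8.58. On those 5 arrays the Klf5 signals above therefore equal those of 1 probe set, which does not show that the gene row rests on it alone.

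**Figure D3:**
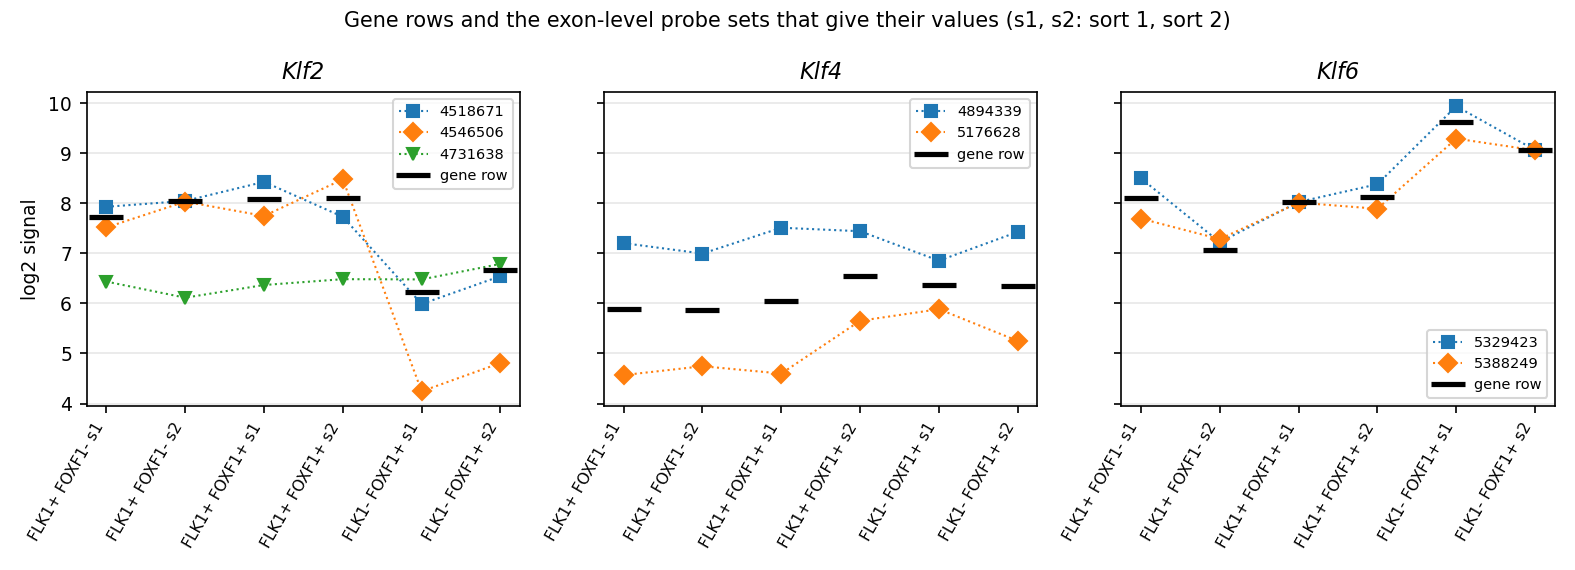
Log2 signal (y axis) on each array (x axis, by population and sort) of the gene rows of Klf2, Klf4 and Klf6, as black bars, and of the exon-level probe sets traced to them, as coloured points. In Klf2, probe set 4546506 drops to 4.24 and 4.81 on the FLK1-negative arrays, where the gene row follows the other 2 probe sets.

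The sorts differed from each other in some of the genes in the same direction in all populations. Klf5 was higher in sort 1 than in sort 2 by 0.92 log2 units in FLK1+ FOXF1-, 0.30 in double-positive and 1.53 in FLK1- FOXF1+ cells. Of all rows, 16.7% were higher in sort 1 in all 3 populations and 14.1% were higher in sort 2. Klf3 ran the other way, with sort 1 minus sort 2 at -0.24, -0.59 and -0.29, and Klf2 likewise at -0.32, -0.02 and -0.43. In Klf6 the values were 1.03, -0.12 and 0.55, and in Klf4 they were 0.02, -0.49 and 0.03. The pooled standard deviation between sorts was 0.74 log2 units for Klf5, larger than in 97.1% of rows, and 0.48 for Klf6, larger than in 88.0%. It was 0.22 for Klf2, larger than in 41.9%. Within sort 1 and within sort 2 taken alone, Klf5 had the order FLK1+ FOXF1-, double-positive, FLK1- FOXF1+ from high to low. Klf3 had that order in both sorts too. Klf2 had double-positive, FLK1+ FOXF1-, FLK1- FOXF1+ in both, while the order in Klf4 and Klf6 differed between the sorts. Since same-numbered sorts were not treated as pairs, these orders are only a description.

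**Figure D4:**
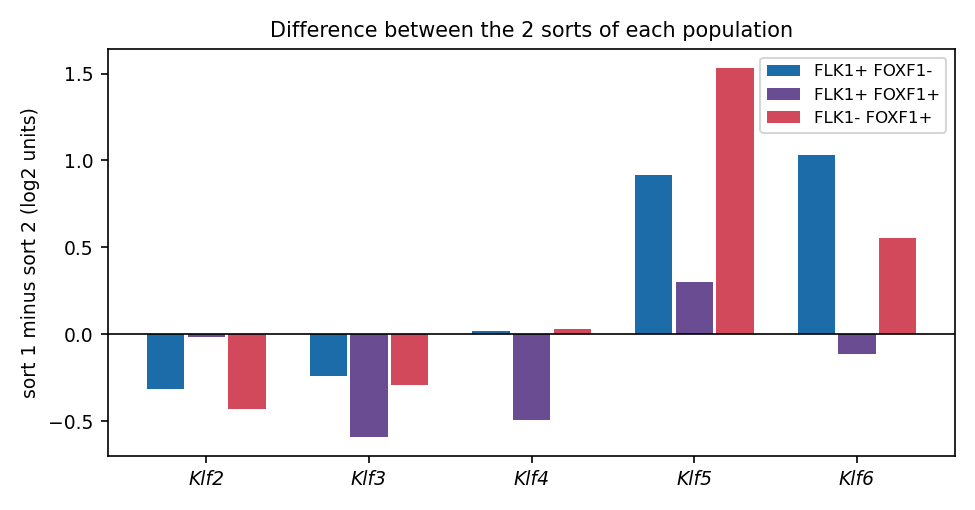
Sort 1 minus sort 2 in log2 units (y axis) for each of the 5 genes (x axis) and each population (bar colour). Klf5 is above 0 in all 3 populations, with 1.53 in FLK1- FOXF1+ cells, while Klf3 and Klf2 are below 0 in all 3.

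Other gene rows with a like pattern were sought among the 1074 rows outside the list whose population means spanned at least 1 log2 unit. Likeness was measured by Pearson's r over the 6 arrays, which fall into 3 populations, and it is a description with no test. Klf2 had 91 rows with r above 0.9 and Klf6 had 57, followed by Klf5 with 34, Klf4 with 17 and Klf3 with 12. Rows of the opposite pattern, with r under -0.9, numbered 83, 38, 13, 17 and 5 in the same order of genes. The row most like Klf2, ENSMUSG00000026921 (r = 0.999), had population means of 11.29 in FLK1+ FOXF1-, 11.70 in double-positive and 8.58 in FLK1- FOXF1+ cells. The row most like Klf6, ENSMUSG00000024697 (r = 0.998), had means of 5.85, 6.20 and 7.05. These rows are given by ID because the files and the reference do not name them, and they were the nearest rows of the 2 genes with the highest r.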

How the data were processed

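The authors deposited log2 signals of 6 Affymetrix mouse exon arrays, summarised as 22400 gene rows and 128950 exon-level rows; RMA and Affymetrix Power Tools are named in the submitters' processing notes, while versions, settings and the grouping of probe sets into genes are not stated there. The 12 samples are the same 6 arrays at 2 levels and were counted as 6. Values were used as deposited. A limma model (version 3.58.1, R 4.3.3, lmFit and eBayes) was fitted to each gene row over all 6 arrays. It had 3 residual and 4.27 prior degrees of freedom. Two-sided p-values were adjusted by Benjamini-Hochberg over the 22400 rows of a comparison. The fit was tested on simulated data, but recovery was required only for the largest planted shift, which exceeded every difference given here. Recovery at the sizes seen here is not reported. Differences are means of 2 arrays with the fit's standard error, and precision is limited by the number of arrays. The design text calls the sorts biological replicates. No detection calls were used, so low signals are not called absent, and RMA can compress large differences. Same-numbered sorts deviated together with r of 0.14, 0.10 and 0.06 across genes for the pairs of populations, not all above 0.1, and were not treated as pairs. The genes and all lists were chosen with earlier results of these data known. Named genes were the 5 genes and, for likeness, rows ranked by r, at most 2 printed; lists of other genes by symbol could not be used for lack of names. Sequences are from RefSeq (GRCm38.p6). Plots used matplotlib 3.10.9 (Python 3.11.15).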

Additional observations from a re-analysis of the deposited data

How the results depend on the processing

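Alternatives changed the scaling (a further quantile normalization, or centring arrays on their medians), the rows tested (without the dimmer 50%), the prior (trended and robust) or the arrays (those of 2 populations, or all but 1), or added the sort number as a block or used exon-level probe sets. The count of the 5 genes past the limma threshold stayed at 0 in all refits of the gene rows, with 1 exception: without the dimmer 50% of rows it was 1 between double-positive and FLK1- FOXF1+ cells, where the adjusted p of Klf2 was 0.0485 against 0.0587 over all rows and between 0.0485 and 0.323 over the alternatives, and fewer rows (11200) were then adjusted over. A replicate block by sort number left the counts at 0, 0 and 0; the differences were the same by construction, and the standard error of Klf5 was 0.32 in place of 0.51 log2 units. Leaving out 1 array at a time gave counts of 0 to 0, and turned the direction of 3 differences between populations whose 95% intervals included 0: Klf6 between the FLK1-positive populations (-0.02 to 1.01), and Klf3 (-0.11 to 0.48) and Klf4 (-0.30 to 0.19) between double-positive and FLK1- FOXF1+ cells. The spread of a lone array was then taken from the other populations. Over all rows, the counts between double-positive and FLK1- FOXF1+ cells were 64, and 41 when only these populations were fitted; between FLK1- FOXF1+ and FLK1+ FOXF1- cells they were 122 and 69. Leaving out 1 array gave 2 to 41 and 26 to 69, with fewer residual degrees of freedom. Of the probe sets, 4731638 (Klf2) turned both differences from FLK1- FOXF1+ cells, and 4894339 (Klf4) turned that between double-positive and FLK1- FOXF1+ cells, to 0.34.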
